A study of Sus scrofa with 9 samples.

Results

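The nuclear receptors described here are 35 genes of the nuclear receptor family, chosen by symbol, of which 34 had a row in the deposited count table of 29837 gene symbols from pig liver. NR4A1 had no row, and the RefSeq gene table of Sscrofa11.1 lists it as a pseudogene, so it was not analysed here. Liver RNA came from 4 MIDY pigs and 5 of the wild type (WT); each pig was a female of 2 years and gave 1 library. MIDY, mutant INS gene-induced diabetes of youth, names pigs that carry a C94Y mutant insulin transgene, and WT pigs carry none. Diabetic animals were given short and long acting insulin, so the transgene, diabetes and insulin treatment cannot be told apart. The sources used here do not state the promoter of the transgene or whether the MIDY animals descend from 1 founder.

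Nuclear receptors are transcription factors, many of which are switched by small lipid-soluble ligands such as steroids, retinoids, oxysterols and fatty acids. Most bind DNA through zinc fingers, either as partners of a retinoid X receptor (RXR), as homodimers or as monomers, and exchange corepressors for coactivators when ligand binds. In liver they are known for the control of bile acid, cholesterol, lipid, glucose and drug metabolism. Receptors without a known natural ligand are called orphan receptors.

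Total counts ranged from 14115415 to 19533463 per library, and 3 counts, the level a count of 0 still allows, corresponded to 0.150 to 0.208 CPM (counts scaled to a library of 1000000, on TMM-scaled library sizes). The hepatocyte markers summed to 118503 to 172403 CPM in WT and 145824 to 172554 CPM in MIDY, and all 8 were present. Stellate cell and fibroblast markers summed to 376 to 630.0 CPM in WT and 279 to 403 in MIDY, with 1 of 10 called lower by edgeR (5 lower at an unadjusted p below 0.05) and 3 lower by DESeq2. Macrophage markers summed to 465 to 704 CPM in WT and 408 to 513 in MIDY, and endothelial markers to 801 to 949 and 820.0 to 899, with 0 of 8 and 0 of 9 called by edgeR (4 and 3 at an unadjusted p below 0.05); DESeq2 called 1 macrophage marker higher and 0 endothelial markers. Markers of T and NK cells summed to 27.6 to 41.2 CPM in WT and 21.6 to 24.5 in MIDY, with 1 of 7 tested markers called lower. B cell markers summed to 22.1 to 52.3 CPM in WT and 14.7 to 21.8 in MIDY, neutrophil markers to 6.38 to 11.8 and 4.35 to 6.11, and bile duct markers to 37.5 to 83.9 and 29.1 to 44.8, with 0 called in each by edgeR (2, 1 and 3 at an unadjusted p below 0.05), while DESeq2 called 1 neutrophil marker lower. In bulk tissue, fewer cells of a type and less RNA per cell cannot be told apart.

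Of the 34 receptors in the table, 23 had enough counts to be tested. One of them, HNF4G, rose in MIDY liver, and 0 fell (edgeR's quasi-likelihood test, Benjamini-Hochberg adjusted p below 0.05 over all 14100 genes tested). That is 4.35% of the tested receptors, where 1.17% of all tested genes were called in either direction, 0.816% as higher and 0.355% as lower. At an unadjusted p below 0.05 there were 5 receptors, 2 higher and 3 lower, or 21.7% against 16.1% of all tested genes (8.15% higher and 8% lower). DESeq2 called HNF4G higher and ESR1 lower. The fitted log2 fold changes lay above 0 for 11 receptors and below 0 for 12, with a median of -0.0081, against one of -0.0047 over all tested genes. The groups did not overlap in 2 of the 23, HNF4G and NR1H2, or 8.70% against 6.35% of all tested genes (3.72% higher and 2.63% lower). The share of receptors at an unadjusted p below 0.05 and the share without overlap were thus close to those of all tested genes.

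**Figure D1:**
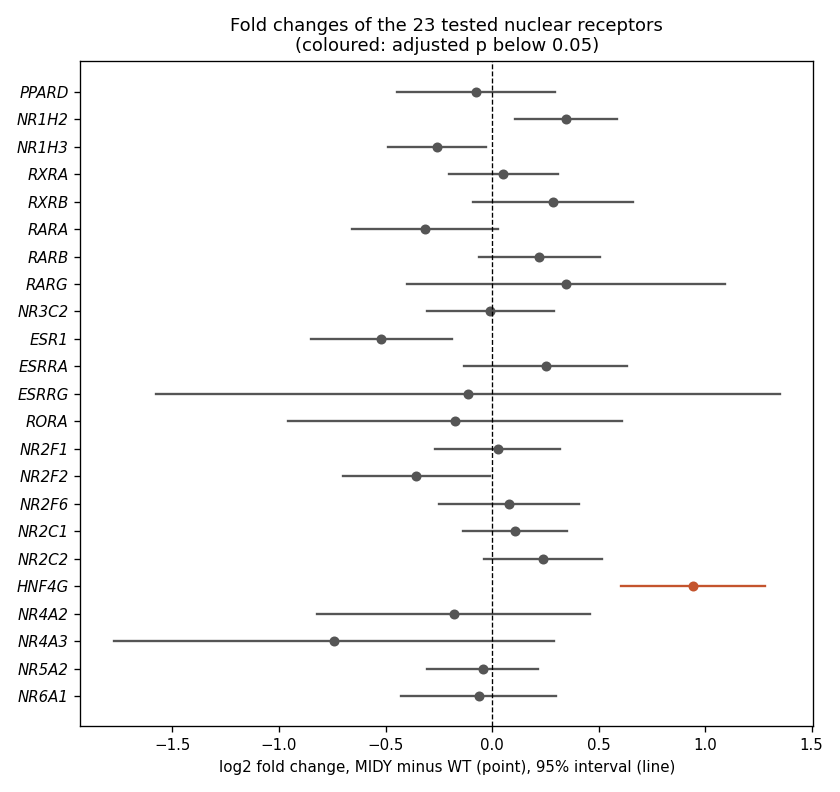
Log2 fold change of each tested nuclear receptor in MIDY against WT liver on the x axis (points, above 0 for higher in MIDY) with its 95% interval (lines), 1 receptor per line. The interval of HNF4G runs from 0.60 to 1.28, and the widest intervals belong to ESRRG, NR4A3 and RORA.

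HNF4G encodes hepatocyte nuclear factor 4 gamma, the less studied relative of HNF4A, and both bind DNA as homodimers and act on genes of the gut, kidney, pancreas or liver. HNF4G (chromosome 4, 60505388 to 60641052 on Sscrofa11.1) stood at 28.0, 21.4, 26.7 and 20.0 CPM in MIDY replicates 1 to 4 and at 12.6, 9.38, 14.0, 15.2 and 11.4 CPM in WT replicates 1 to 5. Every MIDY library lay above every WT library. Mean levels were 24.0 ± 3.93 CPM in MIDY (SD, n = 4) and 12.5 ± 2.27 CPM in WT (SD, n = 5), a log2 fold change of 0.94 ± 0.16 (SE; edgeR adjusted p = 0.0182). By p-value HNF4G was number 37 of the 14100 tested genes. With each library left out in turn, 8 of 9 fits called it, at log2 fold changes of 0.85 to 1.02. Without MIDY replicate 3 it was not called (0.89, edgeR adjusted p = 0.0570), nor without WT replicates 1 and 2 together (0.82, edgeR adjusted p = 0.0627). The gene model LOC106510047, which overlaps HNF4G, had 0 counts in all libraries. The 8 hepatocyte markers had a median log2 fold change of 0.08, with 5 fitted above 0 and 0 called by edgeR (1 at an unadjusted p below 0.05, and 1 called by DESeq2), and their part in the HNF4G value was not tested.

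HNF4A, the main HNF4 receptor of hepatocytes, did not pass the test. It had 198 ± 33.1 CPM in WT (SD, n = 5) and 210 ± 21.7 CPM in MIDY (SD, n = 4), with a log2 fold change of 0.08 ± 0.13 (SE; edgeR adjusted p = 0.817). For every 100 HNF4A counts there were 11.8, 11.5, 13.3 and 9.28 HNF4G counts in MIDY replicates 1 to 4 and 6.45, 3.93, 9.19, 8.29 and 5.21 in WT replicates 1 to 5. This ratio within a library does not depend on the scaling between libraries; its groups did not overlap, with MIDY replicate 4 just above WT replicate 3. The ratio was formed after the values of HNF4G were seen and is given with no test. Reads that fit both genes may be split or left out in counting.

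**Figure D2:**
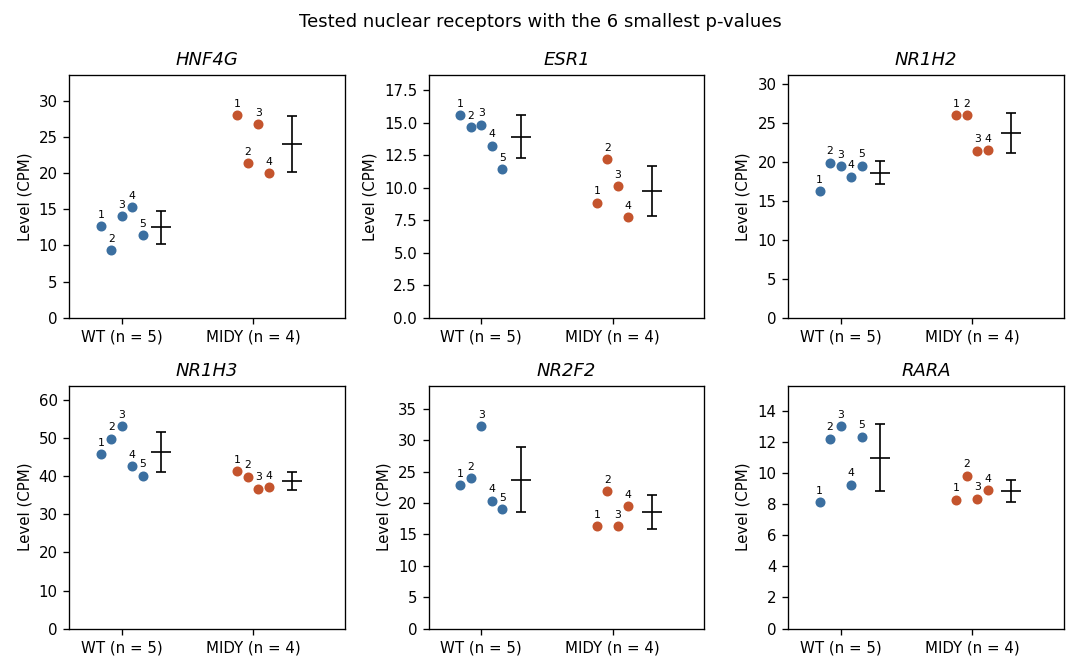
Levels in CPM (y axis, starting at 0) of the 6 tested receptors with the smallest p-values in each WT (blue) and MIDY (orange) library, numbered by replicate, with mean and SD in black. HNF4G and NR1H2 show no overlap between the groups, while ESR1, NR1H3, NR2F2 and RARA overlap.

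The fatty acid and sterol sensors were the PPAR and LXR receptors, which pair with RXR and respond to fatty acids and oxysterols. The 2 LXR genes had fitted values of opposite sign, and neither passed the adjusted threshold. NR1H2, or LXR beta, which most tissues express, stood at 25.9, 25.9, 21.4 and 21.4 CPM in MIDY replicates 1 to 4 and at 16.2, 19.9, 19.4, 18.1 and 19.5 CPM in WT replicates 1 to 5. No WT library reached the MIDY range (lowest 21.4, against a highest WT level of 19.9 CPM). Its log2 fold change was 0.35 ± 0.11 (SE; edgeR adjusted p = 0.155), with a 95% interval of 0.11 to 0.59.

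NR1H3, or LXR alpha, is the LXR form known for its high expression in liver and in macrophages. NR1H3 stood at 41.4, 39.9, 36.8 and 37.1 CPM in MIDY replicates 1 to 4 and at 45.8, 50.0, 53.2, 42.6 and 40.2 CPM in WT replicates 1 to 5. Of the WT libraries, only replicate 5 lay below the highest MIDY library. Its log2 fold change was -0.26 ± 0.11 (SE; edgeR adjusted p = 0.259). Macrophage markers had a median log2 fold change of -0.35, with 7 of 8 fitted below 0 and 0 called by edgeR, while DESeq2 called 1 higher, and their part in the NR1H3 value was not tested. The models of MADD and ACP2 overlap NR1H3, which makes its counts uncertain, and their log2 fold changes were 0.05 and -0.03 (edgeR adjusted p = 0.866 and 0.923).

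PPARD, the broadly expressed PPAR, had 21.3 ± 2.37 CPM in WT (SD, n = 5) and 20.3 ± 5.84 CPM in MIDY (SD, n = 4), with MIDY replicate 2 highest of all 9 libraries and MIDY replicate 3 lowest. Its log2 fold change was -0.08 ± 0.17 (SE; edgeR adjusted p = 0.879). PPARG, the adipocyte PPAR, had 63 counts over the 9 libraries, 4 to 11 in each, and did not reach the count minimum.

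The RXR genes encode the shared partners. RXRA, the main RXR of liver, stood at 139, 140, 116 and 122 CPM in MIDY replicates 1 to 4 and at 102, 117, 148, 124 and 131 CPM in WT replicates 1 to 5. The groups overlapped over nearly their whole range, and the log2 fold change of RXRA was 0.05 ± 0.12 (SE; edgeR adjusted p = 0.876), with a 95% interval of -0.20 to 0.31. RXRB stood at 4.11, 4.23, 4.89 and 5.24 CPM in MIDY replicates 1 to 4 and at 3.54, 3.29, 3.59, 3.72 and 4.80 CPM in WT replicates 1 to 5. WT replicate 5 was the one WT library within the MIDY range, and RXRB had a log2 fold change of 0.29 ± 0.17 (SE, by edgeR with adjusted p = 0.444). RXRG, known from muscle and brain, had 27 counts in all and was not tested.

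Among the retinoic acid, vitamin D and steroid receptors, 5 of 8 were tested and 0 were called by edgeR (1, ESR1, at an unadjusted p below 0.05), while DESeq2 called ESR1 lower. RARA, the broadly expressed retinoic acid receptor, stood at 8.29, 9.85, 8.37 and 8.91 CPM in MIDY replicates 1 to 4 and at 8.13, 12.2, 13.0, 9.26 and 12.4 CPM in WT replicates 1 to 5. WT replicates 2, 3 and 5 lay above the MIDY range, while WT replicates 1 and 4 were below or inside it (log2 fold change -0.32 ± 0.16 SE, edgeR adjusted p = 0.351). RARB, itself induced by retinoic acid in many cells, stood at 7.60, 7.42, 7.21 and 6.39 CPM in MIDY replicates 1 to 4 and at 6.53, 5.69, 6.21, 5.86 and 6.38 CPM in WT replicates 1 to 5. Only WT replicate 1 reached into the MIDY range, and the log2 fold change of RARB was 0.22 ± 0.13 (SE; edgeR adjusted p = 0.431). The spread of RARB within groups was narrower than in all but 2.74% of tested genes (SD 0.094 on the log2 scale, against a median of 0.26). RARG, known mainly from skin, stood at 0.997, 1.52, 1.42 and 1.83 CPM in MIDY replicates 1 to 4 and at 0.764, 0.898, 0.827, 1.13 and 2.03 CPM in WT replicates 1 to 5. The highest of all 9 was WT replicate 5 (log2 fold change 0.35 ± 0.34 SE, edgeR adjusted p = 0.668), and RefSeq lists the pig RARG model as a long non-coding RNA.

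ESR1, the estrogen receptor of hepatocytes, had the second smallest p-value of the family. ESR1 (chromosome 1, 14217032 to 14604906) stood at 8.85, 12.2, 10.1 and 7.75 CPM in MIDY replicates 1 to 4 and at 15.6, 14.6, 14.8, 13.2 and 11.4 CPM in WT replicates 1 to 5. The ranges overlapped through 1 library of each group, MIDY replicate 2 above WT replicate 5. The level was 13.9 ± 1.65 CPM in WT (SD, n = 5) and 9.73 ± 1.91 CPM in MIDY (SD, n = 4), a log2 fold change of -0.52 ± 0.15 (SE; edgeR adjusted p = 0.122). DESeq2 alone among the alternatives called ESR1 (adjusted p = 0.0462), and over the 18 alternatives its adjusted p ranged from 0.0462 to 0.289.

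NR3C2, the mineralocorticoid receptor, had 13.0 ± 1.59 CPM in WT (SD, n = 5) and 12.9 ± 1.75 CPM in MIDY (SD, n = 4), with a 95% interval of its log2 fold change from -0.30 to 0.29. VDR, the vitamin D receptor, had 30 counts in all, from 0 to 9 per library, and was not tested. ESR2 had 0 counts in every library, and PGR, the progesterone receptor and a classical estrogen-induced gene, had 2.

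Count ratios of related receptors within a library did not overlap between the groups in 1 of 8 pairs, the LXR pair. The share over other gene pairs was not computed, so 1 of 8 has no background to be set against. The levels of NR1H2, a member of that pair, did not overlap either. The log2 ratio of NR1H3 to NR1H2 counts was 0.68, 0.62, 0.78 and 0.79 in MIDY replicates 1 to 4 and 1.50, 1.33, 1.46, 1.24 and 1.04 in WT replicates 1 to 5. Every MIDY library lay below every WT library, with a difference of -0.60 between the means (exact two-sided permutation p = 0.0159, adjusted p = 0.127 over 8 pairs). The smallest p these 126 splits can give is 0.00794, so a single pair cannot pass the adjusted threshold among 8, and 0 of the 8 pairs passed it. RARA to RARB differed by -0.51 and NR2F2 to NR2F1 by -0.37 (exact permutation p = 0.0476 and adjusted p = 0.127 for each). For RXRA to RXRB the difference was -0.23, for RARA to RARG -0.70, for NR2F2 to NR2F6 -0.41, for NR2C1 to NR2C2 -0.15 and for ESRRA to ESRRG 1.15 (exact permutation adjusted p from 0.159 to 0.389). The pairs share members and are not independent.

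**Figure D3:**
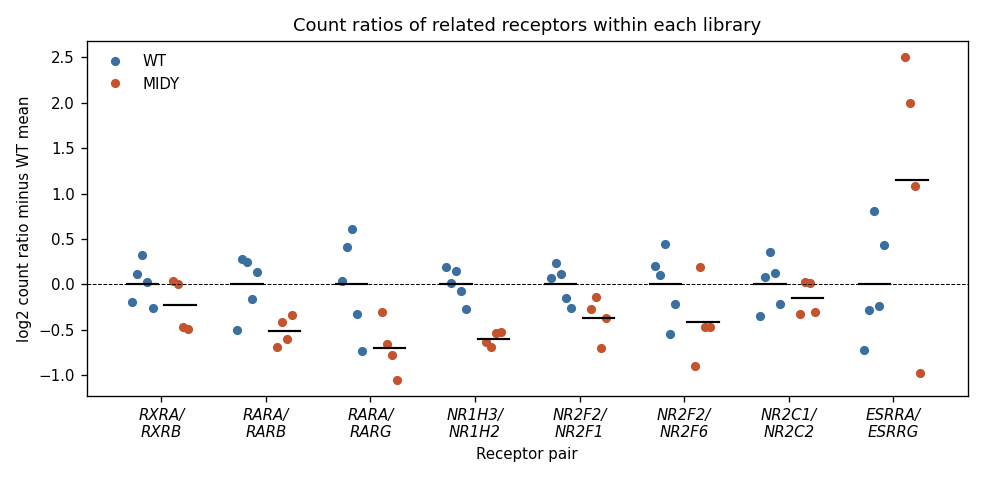
Log2 ratio of the counts of 2 related receptors in each library, minus the mean of the WT libraries (y axis), for the 8 pairs tested (x axis), with WT in blue, MIDY in orange and the group means as black bars. The NR1H3 to NR1H2 ratio is the one pair whose groups do not overlap, at a mean difference of -0.60.

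The estrogen-related receptors are orphan receptors that work with the coactivator PPARGC1A on mitochondrial genes. ESRRA stood at 10.4, 12.8, 10.7 and 13.8 CPM in MIDY replicates 1 to 4 and at 6.18, 11.2, 10.6, 11.5 and 10.6 CPM in WT replicates 1 to 5. WT replicate 1 stood far below the other 8 libraries. The log2 fold change of ESRRA was 0.25 ± 0.18 (SE; edgeR adjusted p = 0.521) and 0.12 without WT replicate 1. Counts of ESRRA are uncertain because the model of TRMT112 overlaps it. ESRRG stood at 0.187, 0.347, 0.579 and 3.20 CPM in MIDY replicates 1 to 4 and at 1.18, 1.60, 0.690, 1.57 and 0.903 CPM in WT replicates 1 to 5. MIDY replicates 1 to 3 lay below every WT library, and MIDY replicate 4 lay above them all. The log2 fold change of ESRRG was -0.11 ± 0.67 (SE; edgeR adjusted p = 0.958) and -1.65 without MIDY replicate 4 (edgeR adjusted p = 0.109).

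RORA, an orphan receptor that activates the clock gene ARNTL and acts in lipid metabolism, stood at 436, 349, 924 and 383 CPM in MIDY replicates 1 to 4 and at 373, 397, 666, 902 and 611 CPM in WT replicates 1 to 5. MIDY replicate 3 and WT replicate 4 were alike at the top, and the lowest were MIDY replicate 2 and WT replicate 1. The log2 fold change was -0.17 ± 0.35 (SE; edgeR adjusted p = 0.862), and the within-group SD of RORA was 0.58 on the log2 scale, wider than in 88.7% of tested genes. Without MIDY replicate 3 the log2 fold change of RORA was -0.60, and without WT replicate 4 it was 0.03. RORB and ESRRB had 9 counts and 1 count in all.

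**Figure D4:**
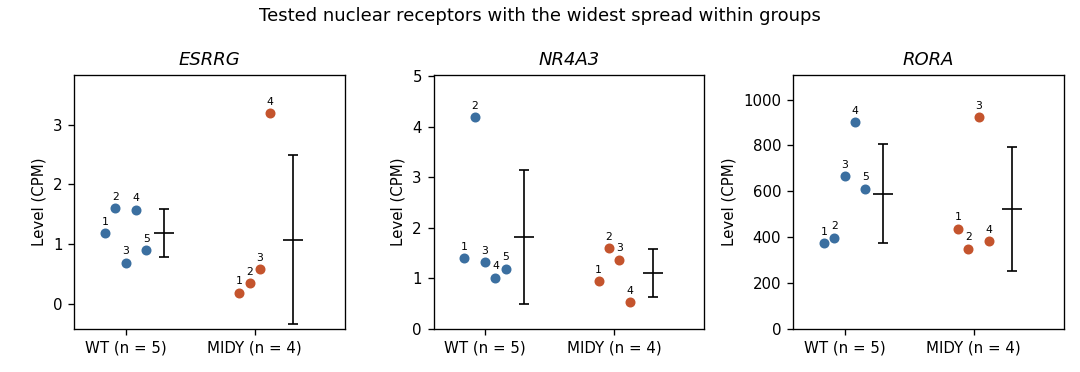
Levels in CPM (y axis) of ESRRG, NR4A3 and RORA, the 3 tested receptors with the widest spread within groups, in each WT (blue) and MIDY (orange) library, numbered by replicate, with mean and SD in black. A single library stands above the others of its group in each: MIDY replicate 4 for ESRRG at 3.20, WT replicate 2 for NR4A3 at 4.19 and MIDY replicate 3 for RORA at 924.

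The NR2 receptors other than HNF4G did not pass the test. NR2F1 and NR2F2, the COUP transcription factors I and II, are known from mesenchymal and endothelial cells as well as hepatocytes. NR2F2 stood at 16.3, 21.9, 16.4 and 19.5 CPM in MIDY replicates 1 to 4 and at 22.9, 24.0, 32.3, 20.4 and 19.1 CPM in WT replicates 1 to 5. The groups overlapped, with WT replicate 3 highest, and the log2 fold change of NR2F2 was -0.36 ± 0.16 (SE; edgeR adjusted p = 0.296). Stellate cell and fibroblast markers had a median log2 fold change of -0.60, with 8 of 10 fitted below 0, and endothelial markers one of -0.15, with 7 of 9 below 0; their part in the NR2F2 value was not tested. For an overlapping model, LOC102160410, it was -0.39 (edgeR adjusted p = 0.386). NR2F1 had a log2 fold change of 0.03 ± 0.13 and NR2F6 one of 0.08 ± 0.15 (SE; edgeR adjusted p = 0.952 and 0.853).

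NR2C1 and NR2C2, the testicular receptors TR2 and TR4, are repressors and activators at direct repeats that RXR partners also bind. NR2C2 stood at 34.8, 30.0 (30.02), 30.0 (30.05) and 31.5 CPM in MIDY replicates 1 to 4 and at 33.3, 24.3, 21.4, 26.2 and 28.7 CPM in WT replicates 1 to 5. WT replicate 1 was the only WT library within the MIDY range, and NR2C2 had a log2 fold change of 0.24 ± 0.13 (SE, by edgeR with adjusted p = 0.385). MRPS25 overlaps NR2C2 and makes its counts uncertain. NR2C1 had a log2 fold change of 0.11 ± 0.11 (SE, by edgeR with adjusted p = 0.687). NR2E1, a receptor of neural progenitors, had 78 counts in all and lay just under the count minimum. The tested receptors with the fewest counts were ESRRG with 180 and RARG with 195. NR2E3, the photoreceptor member, had 1 count.

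NR4A receptors are induced within minutes by hormones and stress, glucagon among them in liver. NR4A3 stood at 0.935, 1.59, 1.37 and 0.524 CPM in MIDY replicates 1 to 4 and at 1.39, 4.19, 1.31, 1.01 and 1.18 CPM in WT replicates 1 to 5. Apart from WT replicate 2 the groups lay in the same range, and the log2 fold change of -0.74 ± 0.48 (SE; edgeR adjusted p = 0.475) became -0.15 for NR4A3 without that library. NR4A2 had 3.29 ± 1.13 CPM in WT (SD, n = 5) and 2.91 ± 1.15 CPM in MIDY (SD, n = 4), with a log2 fold change of -0.18 ± 0.30 (SE; edgeR adjusted p = 0.820). Of 20 tested immediate early genes 17 had fitted values below 0 and 0 were called by edgeR, DESeq2 or limma voom (5 at an unadjusted edgeR p below 0.05), with a median log2 fold change of -0.28. JUN (-0.51), KLF6 (-0.48) and JUND (-0.51), all transcription factors, had the smallest p-values there (edgeR adjusted p = 0.223, 0.250 and 0.261). JUN was called only without MIDY replicate 4 (edgeR adjusted p = 0.0468) and JUND only without MIDY replicate 1 (0.0481), while KLF6 was called under 0 alternatives.

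NR5A2, or LRH-1, which drives bile acid synthesis genes, stood at 48.1, 51.9 (51.93), 51.9 (51.94) and 45.7 CPM in MIDY replicates 1 to 4 and at 38.5, 49.3, 55.3, 55.8 and 55.7 CPM in WT replicates 1 to 5. The MIDY libraries fell within the WT range, and NR5A2 had a log2 fold change of -0.04 ± 0.12 (SE, by edgeR with adjusted p = 0.904), with a 95% interval of -0.30 to 0.22. NR6A1, the germ cell nuclear factor, had 5.43 ± 0.73 CPM in WT (SD, n = 5) and 5.19 ± 0.77 CPM in MIDY (SD, n = 4; edgeR adjusted p = 0.899). NR5A1, of steroid-producing glands, had 3 counts and NR0B1, a repressor without a classical DNA-binding domain, 17 counts; markers of the adrenal cortex, where both are known, summed to at most 0.449 CPM in any library. Of the 23 tested receptors, 19 had a 95% interval that lay within 1 log2 unit of 0 on both sides; the lowest bound was -1.78 (NR4A3) and the highest 1.35 (ESRRG).

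Partners, cofactors and known targets were read from 12 lists with 124 tested genes apart from the receptors above, of which 2 rose and 2 fell, with a median log2 fold change of -0.09. Among 13 other nuclear receptors THRB, the thyroid hormone receptor of liver, fell to 37.2 ± 4.44 CPM in MIDY (SD, n = 4), against 61.2 ± 5.69 CPM in WT (SD, n = 5), a log2 fold change of -0.71 ± 0.11 (SE; edgeR adjusted p = 0.0146). With each library left out in turn, 8 of 9 fits called THRB, the exception being the one without MIDY replicate 2 (edgeR adjusted p = 0.0507). PPARA, the fasting-activated PPAR, had a log2 fold change of 0.74 ± 0.18 (SE, edgeR adjusted p = 0.0756). No WT library of PPARA reached the MIDY range, and DESeq2 alone among the 18 alternatives called it (adjusted p = 0.0100). Of these 13 receptors 2 were higher and 3 lower at an unadjusted edgeR p below 0.05. DESeq2 called 2 higher and 2 lower, and limma voom 1 higher and 1 lower.

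**Figure D5:**
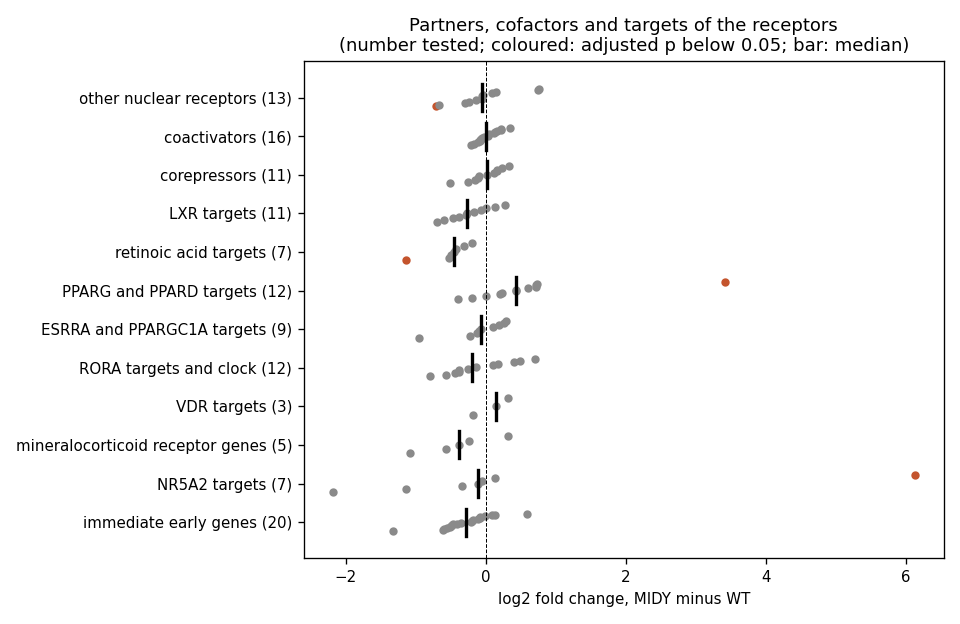
Log2 fold change in MIDY against WT (x axis) of each tested gene in the 12 lists of partners, cofactors and targets (y axis, number tested in brackets), with called genes in orange and the list median as a black bar. Called genes include THRB, CYP26A1 and CYP8B1, the last at 6.12. The medians of the coactivator and corepressor lists lie close to 0, while single genes of these lists lie further away.

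In the coactivator list 0 of 16 genes were called by edgeR, DESeq2 or limma voom, and 0 had an unadjusted edgeR p below 0.05 (median log2 fold change 0.0051), with NCOA2 (0.22), CARM1 (0.22) and NCOA3 (-0.21) at the smallest p-values (edgeR adjusted p = 0.316, 0.393 and 0.409). In the corepressor list 0 of 11 were called by the same 3 tools, and 1 had an unadjusted edgeR p below 0.05 (median 0.01), with SIN3A (0.22), GPS2 (-0.25) and TBL1XR1 (-0.16) first (edgeR adjusted p = 0.285, 0.410 and 0.536).

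Of 12 tested targets of PPARG and PPARD 1 rose and 0 fell, with a median log2 fold change of 0.42. PDK4, which restrains pyruvate oxidation (0.71), and PLIN5, a lipid droplet protein (0.60), missed the threshold, although no WT library reached the MIDY range (edgeR adjusted p = 0.0527 and 0.0963). PDK4 was called under 5 of the 18 alternatives, DESeq2 (adjusted p = 0.00198) and limma voom among them, and PLIN5 under 1, DESeq2 (adjusted p = 0.0322). Over the list DESeq2 called 3 genes higher and limma voom 2. Such targets are known to answer to PPARA as well as to PPARD and PPARG.

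Among targets of retinoic acid receptors, CYP26A1, which breaks down retinoic acid, was the 1 of 7 tested genes that fell (-1.15 ± 0.24 log2, SE; edgeR adjusted p = 0.0425), but only 2 of the 9 leave-one-out fits called it. Over the 18 alternatives CYP26A1 was called in 10, DESeq2 and limma voom among them. All 7 tested genes had fitted values below 0, with a median of -0.46, and 5 had an unadjusted edgeR p below 0.05. TGM2 (-0.50), a transglutaminase, and RARRES1 (-0.43), a retinoid-induced membrane protein, were not called (edgeR adjusted p = 0.131 and 0.168). For CYP26A1, TGM2 and RARRES1 every MIDY library lay below every WT library. Targets of LXR had 0 of 11 called by edgeR, DESeq2 or limma voom (4 lower at an unadjusted edgeR p below 0.05), 9 fitted below 0 and a median of -0.28. The sterol exporter ABCG1 (-0.60), the LDL receptor degrader MYLIP (-0.39) and the lipogenic factor SREBF1 (-0.69) had the smallest p-values there (edgeR adjusted p = 0.153, 0.216 and 0.232), and SREBF1 was called without WT replicate 2 (edgeR adjusted p = 0.0488).

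In the list of NR5A2 targets, the hydroxylase gene CYP8B1 rose (log2 fold change 6.12 ± 0.80 SE, edgeR adjusted p = 0.0146) from a WT level near 0 (0.189 CPM), so its size is imprecise, and it lost its call without WT replicates 1 and 2 together (edgeR adjusted p = 0.0597). The other 6 tested genes were not called, SCARB1 (-0.34), the HDL receptor, among them (edgeR adjusted p = 0.197). In the list of RORA targets and clock genes 0 of 12 were called by edgeR (2 higher and 4 lower at an unadjusted p below 0.05) and 2 lower by DESeq2, with DBP (-0.79), PER1 (-0.38) and CRY2 (-0.45) first (edgeR adjusted p = 0.128, 0.132 and 0.169). The mineralocorticoid receptor list, which shares PER1, had 0 of 5 called by edgeR (1 higher and 3 lower at an unadjusted p below 0.05) and 1 lower by DESeq2, with FKBP5 (-0.57) and SGK1 (-1.08) among the smallest p-values (edgeR adjusted p = 0.181 and 0.251). In the ESRRA and PPARGC1A list 0 of 9 were called by edgeR, DESeq2 or limma voom and 1 had an unadjusted edgeR p below 0.05 (median -0.07), with SDHB (0.25), PERM1 (-0.96) and SDHA (0.18) first (edgeR adjusted p = 0.301, 0.362 and 0.364). Of 3 tested genes of vitamin D transport and action, GC (-0.19), CYP2R1 (0.31) and CYP27A1 (0.14), 0 were called by edgeR, DESeq2 or limma voom and 0 had an unadjusted edgeR p below 0.05 (edgeR adjusted p = 0.473, 0.536 and 0.609).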

How the data were processed

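The deposited table holds the authors' raw counts, with a row per gene symbol and a column per library, not normalized. STAR, HTSeq, DESeq2 and the build Sscrofa11.1 are named per the submitters' processing notes; the sources used here do not give versions, annotation release or strand setting, so overlapping models are uncertain. Libraries were made from ribosomally depleted total RNA, per the labels' protocols.

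Counts were fitted with edgeR 4.0.16 in R 4.3.3: filterByExpr, TMM scaling and the robust quasi-likelihood test of 4 MIDY against 5 WT libraries, over 14100 genes. Calls use a two-sided Benjamini-Hochberg adjusted p below 0.05 over all genes. Standard errors are the absolute log2 fold change over the root of F, and intervals use the fit's degrees of freedom. Receptor pairs use log2 count ratios (0.5 added) and exact two-sided permutation. On simulated counts the fit called 55% of genes changed by 1 log2 unit and 93.9% of those changed by 2, with 9 false calls among 156. Common biological variation was 21.5%. The 11 untested receptors had too few counts for the test, and low expression and limited depth were not told apart. No litter, day or batch entered the fit.

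Per-library values go to called receptors, the 12 with the smallest p and the 5 most abundant; up to 3 genes of each list are named by p, of which some are not reported here. ESRRG was added after its values were seen. Receptors and lists were chosen with earlier results of these data known. The 34 receptors were matched to RefSeq by symbol. Of the 10 pairs listed, the one with NR4A1 could not be formed, and the one with PPARG was left out because PPARG did not reach the count minimum.

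The alternatives were RLE factors, total counts, the 10 most abundant genes removed, no filter, at least 1 CPM in 4 libraries, DESeq2 1.42.0, limma 3.58.1 voom with sample weights, 1 surrogate variable (sva 3.50.0), each library left out, and WT replicates 1 and 2 left out together; for pairs, 1 added to counts, and medians.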

Additional observations from a re-analysis of the deposited data

Results flagged for a closer look

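A single library stood apart from the rest of its group in 6 of 46 sets of a tested receptor and a group, or 13.0%. In each, its gap to the nearest other library exceeded Dixon's critical value. The nominal rate of 1 in 20 for that value assumes independent, normally distributed levels, while these are CPM of sets that share libraries. The share over all tested genes was not computed, so 13.0% has no background to be set against. RORA was at 924 CPM in MIDY replicate 3, against 349 to 436 in the other MIDY libraries. ESRRG was at 3.20 CPM in MIDY replicate 4, against 0.187 to 0.579. NR4A3 was at 4.19 CPM in WT replicate 2, against 1.01 to 1.39 in the other WT libraries. ESRRA was at 6.18 CPM in WT replicate 1, against 10.6 to 11.5. NR2F1 was at 24.5 CPM in WT replicate 3, against 16.8 to 18.8. RXRB was at 4.80 CPM in WT replicate 5, against 3.29 to 3.72. The 6 outlying values came from 6 different libraries.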

How the results depend on the processing

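HNF4G was higher under all 18 alternatives (log2 fold change 0.82 to 1.02) and called in 16; 1 receptor rose as reported, 0 to 1 with a library left out and 0 without WT replicates 1 and 2 together. The count of receptors that fell was 0, 0 in every fit that left out a library and 1 with DESeq2. Over all genes 115 rose and 50 fell: 355 and 284 with DESeq2, 42 and 24 without WT replicates 1 and 2 together, and 34 to 152 and 4 to 107 with a library left out. Of all genes 82 fell with limma voom and 79 with 1 surrogate variable. Of the list genes 2 rose and 2 fell: 6 and 5 with DESeq2, and 2 to 4 and 0 to 3 with a library left out; 4 rose with limma voom, 1 rose without WT replicates 1 and 2 together, and 1 fell with total counts alone. Pair ratios past the threshold were 0 under each alternative, which says nothing of stability, since so few splits leave a single pair unable to pass. Receptors near 0 changed sign. Leaving out single libraries gave log2 fold changes of -0.273 to 0.067 for PPARD, -0.017 to 0.121 for RXRA, -0.080 to 0.084 for NR3C2, -1.65 to 0.224 for ESRRG, -0.598 to 0.031 for RORA, -0.028 to 0.124 for NR2F1, -0.032 to 0.185 for NR2F6, -0.490 to 0.038 for NR4A2 and -0.153 to 0.016 for NR6A1. Without WT replicates 1 and 2 together RXRA was at -0.064, NR3C2 at 0.026, ESRRG at 0.058, NR2F1 at -0.076 and NR2F6 at -0.025. NR3C2 was at 0.018 with total counts alone, 0.00014 with no low-count filter and 0.053 with limma voom, where NR2F6 was at -0.0065. The cause of these changes was not tested. No paired analysis was possible because the labels give the groups no shared replicate numbers.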
